A study of Drosophila melanogaster with 2 samples.

Results

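Dense clusters of CG8388-GFP peaks were taken from the thresholded peak list, which holds 6075 peaks on the dm6 assembly of the Drosophila melanogaster genome. A peak was kept when its summit, the position of highest signal, had at least 4 other thresholded summits within 10 kb on either side on the same chromosome. The rule kept 1074 of the 6075 summits, which is 17.7% of them. Overlapping neighbourhoods of 10 kb on each side of the kept summits merged into 229 clusters, which covered 6.68 Mb, or 4.99% of the 133.881 Mb of the chromosome arms. The members were thus chosen by summit positions in the thresholded list, and their number, spacing and size are a description with no test.

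The material was chromatin from whole embryos 0 to 14 h after laying, males and females pooled, of a transgenic line that stably expresses CG8388 with GFP at its C-terminus. Chromatin was sonicated and precipitated with an antibody to GFP, so the peaks report the tagged protein in a mixture of stages and cell types. All libraries belong to 1 group of 2 replicates, numbered 2 and 3, and there is no second condition. The list of each replicate and the pooled list hold 30000 peaks each, and the thresholded peaks are the part of the pooled list kept after the authors applied a cutoff on the irreproducible discovery rate (IDR). The lists give no number of reads, and the depth of the libraries is therefore unknown. All intervals of shares below are 95% Wilson intervals that cover counting error only. An untagged library was not analysed here. The tagged gene CG8388 had 2 thresholded summits within 10 kb of it, the higher with a signal of 210, and 0 clustered summits.

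In flies, genes that control development often have long introns and intergenic flanks that hold many enhancers, the short DNA elements at which transcription factors act at a distance from the promoter. Several such genes also stand side by side in complexes that arose by duplication, such as the Enhancer of split complex of Notch target genes or the Antennapedia complex of homeotic and early patterning genes. Chromatin immunoprecipitation can recover many neighbouring peaks over such loci, and also over stretches of open chromatin that many factors share.

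The sequences that the highest clustered summits stand on are shown for 7 of the clusters described below, because these summits carry the largest signals of their clusters and span both A/T-rich and mixed sequence. Each line gives the 101 bp around the summit, read 5′ to 3′ on the plus strand of the Release 6 genome from RefSeq (dm6), with every run of at least 8 A or T bases in capitals.
emc and CG13898 cluster, chr3L:781289-781389: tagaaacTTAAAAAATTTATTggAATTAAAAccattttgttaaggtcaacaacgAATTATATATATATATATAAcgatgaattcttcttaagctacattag
CG44362 and CG7560 cluster, chr3L:11405978-11406078: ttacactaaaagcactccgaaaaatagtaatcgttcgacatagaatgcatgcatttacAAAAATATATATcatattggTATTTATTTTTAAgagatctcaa
CHES-1-like cluster, chrX:7700423-7700523: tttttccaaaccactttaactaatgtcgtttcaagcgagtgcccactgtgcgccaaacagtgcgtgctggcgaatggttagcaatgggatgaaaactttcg
bmm and Trl cluster, chr3L:14781476-14781576: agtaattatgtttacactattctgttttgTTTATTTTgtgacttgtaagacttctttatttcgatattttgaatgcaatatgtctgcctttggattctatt
ph-d and ph-p cluster, chrX:2137282-2137382: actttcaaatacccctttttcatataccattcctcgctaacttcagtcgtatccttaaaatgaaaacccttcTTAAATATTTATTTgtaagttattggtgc
E(spl) complex, chr3R:26021409-26021509: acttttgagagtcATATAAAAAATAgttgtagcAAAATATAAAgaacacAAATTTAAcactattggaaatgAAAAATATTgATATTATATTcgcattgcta
Dorsocross complex, chr3L:9025834-9025934: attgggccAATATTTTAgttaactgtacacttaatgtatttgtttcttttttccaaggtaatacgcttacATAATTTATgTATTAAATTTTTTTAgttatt
In the Dorsocross complex window 33 of 101 bases lay in such runs, in the emc and CG13898 window 42 and in the E(spl) complex window 49. The CHES-1-like window held 0 such runs and had a GC content of 46.5%, against 21.8% in the emc and CG13898 window. Over all clustered summits, 858 of 1074 windows (79.9%, 77.4 to 82.2) held a run of at least 8 A or T bases, and 80.8% (79.7 to 81.9) of the 5001 other thresholded windows did.

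Most clusters were small. They held a median of 5 clustered summits, with 42 clusters holding 1 and 30 holding 2, while 14 clusters held at least 10 and the largest held 28. A region spanned a median of 28.1 kb, with the longest at 110.6 kb, and contained a median of 3 protein-coding genes with a transcription start site (TSS) in it. Neighbouring clustered summits of a cluster stood a median of 1737 bp apart, against 7663 bp for neighbouring thresholded summits of the whole list. At the threshold of the rule, 540 members had exactly 4 other summits within 10 kb, and 889 summits that were left out had exactly 3. Some summits are close pairs: 199 neighbouring thresholded summits lay under 500 bp apart, and in such a pair both summits can fall on the same peak of a replicate.

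Each of the 6 arms had clusters. On X, 229 of 1096 thresholded summits were clustered (20.9%, 18.6 to 23.4), and on 3L 265 of 1359 were (19.5%, 17.5 to 21.7). The share was 17.5% on 2R, 17.0% on 2L and 14.1% (12.4 to 16.0) on 3R. The small chromosome 4 had 1 cluster, with 5 of its 26 thresholded summits. The intervals of X and 3L lie above that of 3R, and those of the other arms overlap them.

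The 2 largest clusters lay between genes rather than at promoters. Here a promoter summit is one that lies 500 bp or less from any protein-coding TSS. The largest spanned chr3L:724063-834639 and held 28 clustered summits with signals of 143 to 698, of which 25 were intergenic and 0 were at a promoter. Among the genes with a TSS in it is emc, which encodes a helix-loop-helix protein without a basic region that blocks DNA binding by proneural factors, along with hng3, CG13898, Sf3b3 and CG42553. The only summit of this cluster with emc as the nearest start had a signal of 234 and lay in an intron of hng3. All its other clustered summits had hng3, CG13898 or Sf3b3 as the nearest start. The highest summit of the cluster, with a signal of 698, lay 22712 bp from the nearest TSS, that of CG13898. This highest summit overlapped the peak of rank 745 in replicate 2 and of rank 429 in replicate 3. Replicate 2 had 28 and replicate 3 had 33 of their leading 6075 summits in the region. The next largest, chr3L:11339383-11432496, held 23 clustered summits with signals of 135 to 937, of which 22 were intergenic, and had 27 leading summits of replicate 2 and 20 of replicate 3. Its highest summit lay in an exon of the non-coding gene lncRNA:CR44363 and ranked 391 in replicate 2 and 285 in replicate 3. Both replicates thus listed many leading summits over these gene-poor stretches.

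**Figure D1:**
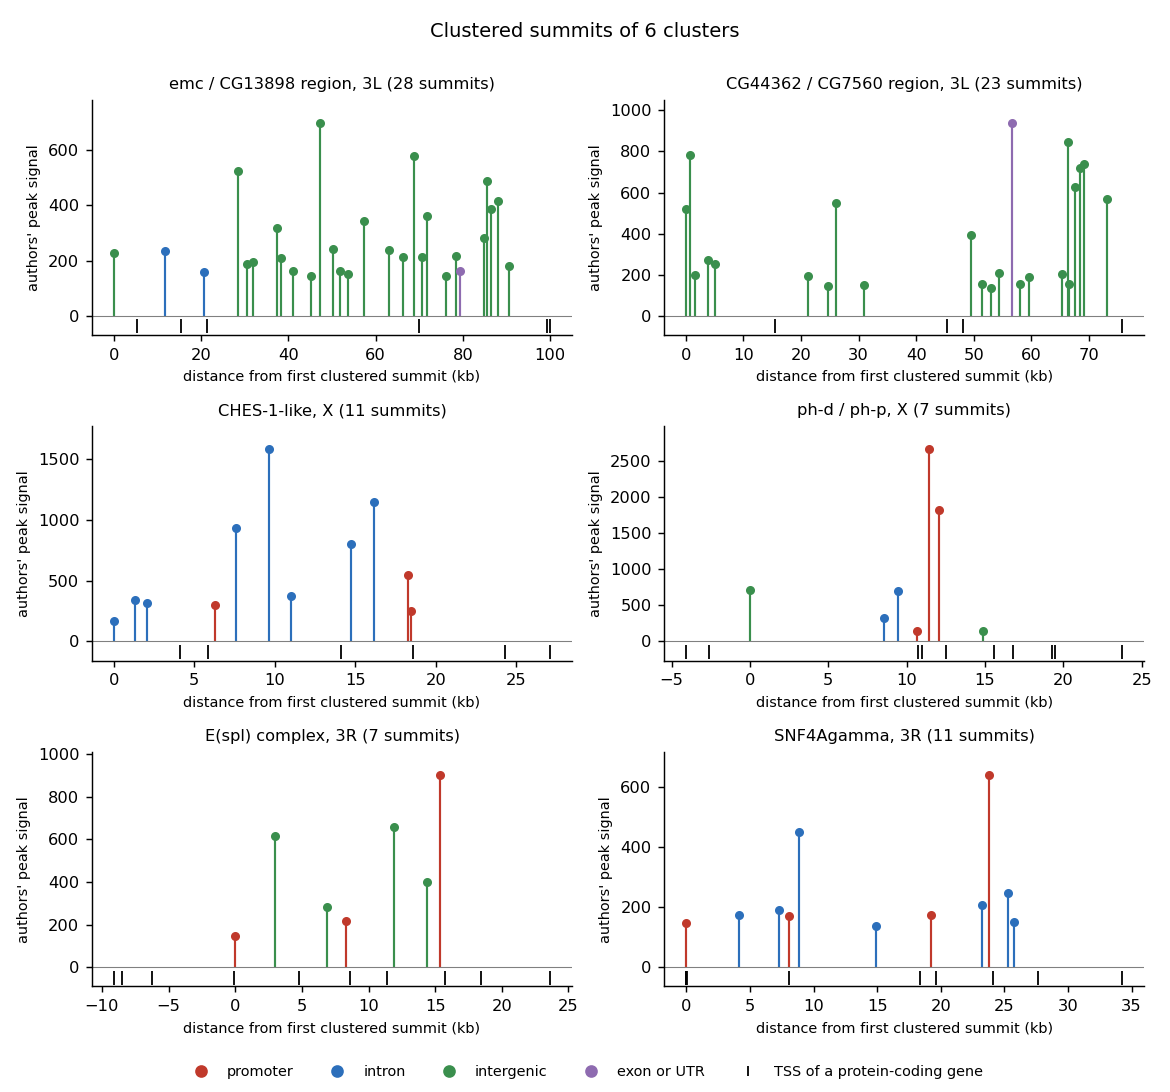
Signal of each clustered summit (authors' scale, y axis) against distance from the first clustered summit in kb (x axis) in 6 clusters, with colours for the class of the summit and black ticks for starts of protein-coding genes. The 28 summits of the emc and CG13898 region and the 23 of the CG44362 and CG7560 region are almost all intergenic, whereas the ph-d and ph-p, E(spl) and SNF4Agamma clusters include promoter summits, and the heights within each cluster differ several-fold.

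Further clusters lay largely between genes. In the cluster at chr3L:3368099-3409457, 10 of 11 summits were intergenic. Its highest summit, with a signal of 835, lay 17992 bp from the nearest start, that of Ids, the gene for iduronate 2-sulfatase. Ids was also nearest to every other summit except that of signal 168. The latter lay 18504 bp from the start of sty, which is outside the region. The sty gene encodes Sprouty, an inhibitor of receptor tyrosine kinase signalling. Another cluster, at chr3L:10735801-10796184 around CG43245, had 10 summits, 8 intergenic and 2 in introns, with signals of 136 to 826. The windows of these 10 summits had a mean GC content of 22.9%.

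Other large clusters had all or most of their summits within a single gene, though not always along its whole length. All 11 summits of the cluster at chrX:7680833-7719312 lay in CHES-1-like, which encodes a forkhead transcription factor. 8 of them were intronic and 3 at promoters, and their signals ran from 166 to 1584. The CHES-1-like summit of highest signal ranked 81 in replicate 2 and 147 in replicate 3. All 11 summits at chr3R:21170818-21216541 lay in SNF4Agamma, which encodes the gamma subunit of AMP-activated protein kinase, with 4 at promoters and signals of 136 to 639. The SNF4Agamma summit of signal 208 ranked 17170 in replicate 2 and 1592 in replicate 3, while the lowest, of signal 136, ranked 6175 and 6516. On X, the cluster at chrX:17481362-17530438 held 10 summits, all in introns of CG43658, the highest with a signal of 2809 and ranks of 15 and 40 in replicates 2 and 3. At chr2R:11583660-11667238, 10 of 16 clustered summits lay in introns of tou, which encodes the chromatin protein Toutatis, and the highest of the cluster, 639, was in an intron of atos. At chrX:6839647-6878028, 11 summits had signals of 147 to 937, and 8 of them lay in CG14434.

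Clusters within a single gene were counted over the whole set. In 62 of the 187 clusters with at least 2 clustered summits, and in 39 of the 125 with at least 5 clustered summits, every clustered summit lay within 1 protein-coding gene. In 13 clusters no protein-coding gene started at all, and the largest of these was an intronic cluster of 8 summits in sbb at chr2R:18316664-18353135. The body of 58 protein-coding genes held at least 5 clustered summits. Among them, named after their values were seen, were CG1677 with 15 in 124.7 kb, Raf with 8, mew with 7, fra and ptc with 6 each, and pnt, puc, tkv, mam, trx and brat with 5 each. Raf encodes a MAP kinase kinase kinase, ptc the Hedgehog receptor, tkv a receptor for Dpp, pnt an Ets factor of the EGF receptor pathway, puc a phosphatase that limits Jun kinase signalling and mam a Notch coactivator. Overlapping genes share summits here, such as CG1677 and the non-coding lncRNA:CR44357, which hold the same 15. Long genes have more room for summits, and the counts are not scaled to length.

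Genes from the list of chromatin, insulator and promoter-binding proteins described below stood in 2 of the clusters that were named for their highest summits. At chr3L:14746161-14800463, 10 clustered summits ran from 267 to 3391. The highest of all clustered summits, 3391, was in an intron of bmm, which encodes the triglyceride lipase Brummer, and it ranked 14 in the thresholded list, 10 in replicate 2 and 26 in replicate 3. A summit of 2274 in an intron of Trl, which encodes the GAGA factor, ranked 47 in replicate 2 and 46 in replicate 3, and a Trl promoter summit had a signal of 396. The second cluster, chrX:2115889-2150731, held the neighbouring paralogues ph-d and ph-p, subunits of Polycomb repressive complex PRC1. Its 7 summits had signals of 138 to 2658, with the highest lying 477 bp upstream of the nearest ph-p start and ranking 40 in replicate 2 and 21 in replicate 3. A further ph-p promoter summit had a signal of 1823. The lowest ph-p summit, 138, ranked 3598 in replicate 2 and 12551 in replicate 3, and a summit of 143 near D2hgdh ranked 16713 in replicate 2 but 3233 in replicate 3, so the high summits of this locus led both lists and the low ones differed more in rank. The genes ph-d and ph-p are close paralogues, and the handling of reads that match both is not stated.

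The remaining clusters named for size or height lay over several genes each. At chr2L:460706-500793, 9 summits lay over CG4297, cbt and ush, the last of which encodes a zinc-finger cofactor of GATA factors. Their signals ran from 138 to 2569, and the highest, in an intron of ush with cbt as the nearest start, ranked 43 in replicate 2 and 27 in replicate 3. At chr2L:835548-881621, 5 of 12 summits were at promoters, among them those of aru (931 and 147), PNUTS (195) and kraken (138). PNUTS encodes a nuclear targeting subunit of protein phosphatase 1. At chr3R:27271209-27299867, 3 of 4 summits were at promoters, with signals of 650 and 2452 at mrt and 388 at bigmax, which encodes a partner of Mondo in sugar-responsive transcription. The mrt summit of 2452 ranked 16 in replicate 2 and 77 in replicate 3.

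Of 39 gene complexes that were looked up, 5 had a member with its TSS in a cluster and 3 had at least 2 such members. Counted by gene, 15 of the 180 members of these complexes had one (8.33%, 5.11 to 13.3), against 920 of 13945 protein-coding genes (6.6%), and without the E(spl) complex 6 of 167 had one (3.59%, 1.66 to 7.62). The E(spl) complex encodes basic helix-loop-helix repressors and Bearded-family proteins that respond to Notch. Of its 13 members, 9 had a TSS in the cluster at chr3R:25996105-26031459, which held 7 clustered summits. Only 3 of these 9 start between the first and last clustered summit of the cluster, and the rest of the 9 start in its flanks of 10 kb. Signals were 902 and 402 upstream of E(spl)m3-HLH, 658 upstream of E(spl)m2-BFM, 616 upstream of E(spl)malpha-BFM, 284 and 217 near Kaz-m1 (the former E(spl)m1), and 144 at the promoter of E(spl)mbeta-HLH. The E(spl)m3-HLH summit of 902 ranked 166 in replicate 2 and 979 in replicate 3, while the E(spl)mbeta-HLH summit ranked 11937 and 3423. The members of the complex therefore differed among themselves, and its weakest summit was outside the leading 6075 of replicate 2. The genes of the complex lie close together, so the nearest start gives a summit's position and not its target.

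The other complexes were covered in part. In the Antennapedia complex, 2 of 9 members, zen and bcd, had a TSS in a cluster of 3 summits at chr3R:6745623-6771060. The highest, with a signal of 1370, lay upstream of Ama, a gene inside the complex that encodes a cell adhesion protein, and ranked 114 in replicate 2 and 182 in replicate 3. The bcd promoter summit had a signal of 203 and the summit nearest zen a signal of 150. When the rule was applied to the leading summits of replicate 3 alone, this region held 0 clustered summits. A second cluster, at chr3R:6902598-6922806, had Antp as the nearest start, 20242 bp from its higher summit, but holds no protein-coding TSS. Its 2 summits, with signals of 637 and 217, fell on the same replicate peaks, which ranked 423 in replicate 2 and 1350 in replicate 3. Of the Dorsocross T-box genes, Doc1 and Doc2 stood in a cluster of 4 intergenic summits at chr3L:9015884-9044418, with signals of 496 and 217 nearest Doc2 and of 148 and 167 nearest Doc1, and both genes start in its flanks. The sloppy paired forkhead gene slp2 stood in a cluster of 8 summits with signals of 170 to 330 and 0 promoter summits. In the cecropin cluster, Anp stood in a region with 1 clustered summit. The other 34 complexes, including the bithorax, iroquois, achaete-scute and Osiris groups, had 0 members with a TSS in a cluster.

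The genes of 9 lists, 3 of regulators and 6 of other functions, were counted in the same way, and bcd, zen, Doc1, Doc2 and slp2 are in the transcription factor list as well as in a complex. Of 91 genes for signalling ligands, receptors and modulators, 17 had a TSS in a cluster (18.7%, 12.004 to 27.9), against 6.6% of all protein-coding genes. For chromatin, insulator and promoter-binding proteins the count was 10 of 64 (15.6%, 8.71 to 26.4), and for developmental transcription factors 20 of 190 (10.5%, 6.92 to 15.7). Genes of the first and last of these lists are long, with medians of 14.2 and 13.0 kb, while the median of the chromatin list is 4.95 kb and that of all protein-coding genes is 2.17 kb. The part of gene length in these shares was not tested. With the rule applied to the leading summits of replicate 2 alone, 13 of 91 signalling genes (8.54% to 22.9%), 8 of 64 chromatin genes (6.47% to 22.8%) and 19 of 190 transcription factors (6.496% to 15.1%) were in clusters, against 6.65% of all genes. Between the first and last clustered summit of a cluster, without the flanks, the counts were 7, 4 and 6, against 1.99% of all genes. By contrast, cytosolic ribosomal protein genes stood in clusters in 6 of 93 cases (6.45%), although 73 of the 93 had a thresholded promoter summit, against 20.4% of all protein-coding genes. Shares were 6 of 73 for mitochondrial ribosomal proteins, 4 of 48 for proteasome subunits, 3 of 70 for oxidative phosphorylation subunits, 3 of 106 for cuticle proteins and 4 of 119 for odorant and gustatory receptors. The 4 receptors were Gr93a, Gr93b, Gr93c and Gr93d, which stand side by side in 1 cluster.

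**Figure D2:**
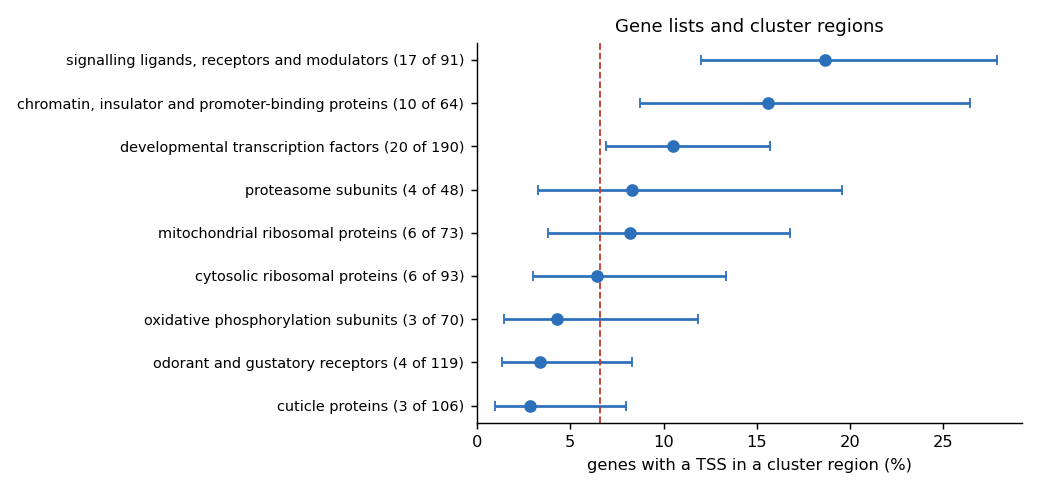
Share of each gene list with a TSS in a cluster region (x axis, %), with 95% Wilson intervals for counting error and the members found of members measured in the label. The dashed line is the 6.6% of all protein-coding genes, and the 3 lists of regulators have intervals that lie above it. Those of the transcription factor and chromatin lists, however, take in the share of all genes when the rule is applied to replicate 2 alone. The interval of the transcription factor list also does so between the first and last clustered summit, without the flanks.

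Signalling genes in clusters covered several pathways. A promoter summit counted here is any thresholded one, and it need not be clustered itself. The highest promoter signals in that list were 982 at aos and 865 at spi, which encode an inhibitor and a ligand of the EGF receptor, 800 at nkd, an antagonist of Wingless signalling, and 531 at neur, a ubiquitin ligase of the Notch pathway. The spi promoter summit ranked 271 in replicate 2 and 621 in replicate 3. The aos cluster also held an intronic summit of 1213 that ranked 301 and 132 in the replicates. In all, 10 of the 17 had a promoter summit, which was itself clustered in 7 (not at nkd, neur or Socs36E), and Dad, InR, S, arr, fra, fz2 and ptc had none while still starting inside a cluster. Among developmental transcription factors, 9 of the 20 had a promoter summit, itself clustered in 5 (not at jing, psq, grh or shn), with signals of 769 at bowl, 396 at Trl, 387 at jing and 277 at psq. The bowl summit ranked 661 in replicate 2 and 360 in replicate 3. The clustered promoter summits of Trl and bcd ranked 1643 and 4623 in replicate 2 and 1402 and 3183 in replicate 3. That of ush, with a signal of 153, ranked 29002 in replicate 2 and 2211 in replicate 3. That of Stat92E, with a signal of 144, ranked 2514 in replicate 3 and overlapped no listed peak of replicate 2. Doc1, Doc2, Hr3, Hr4, brk, chinmo, dac, hth, slp2, tup and zen had no promoter summit. In the chromatin list 7 of the 10 had one, clustered in 2 (ph-p and Trl), led by ph-p at 2658, and Mi-2, mof and trx did not. Trl, jing and psq count in both of the last lists. The share of promoter summits that were themselves clustered is not given for all genes in clusters, so these counts do not compare the lists. Genes in clusters had a promoter summit in 469 of 920 cases and those outside in 2370 of 13025 (18.2%), a gap that the rule itself favours.

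Clustered summits were at promoters less often than the other thresholded summits. Of 1074 clustered summits, 256 were promoter summits (23.8%, 21.4 to 26.5), against 39.9% (38.5 to 41.2) of the 5001 others. Introns held 508 of them (47.3%, 44.3 to 50.3), against 38.5% (37.2 to 39.9), and intergenic sequence 251 (23.4%, 20.9 to 26.0), against 18.0% (17.0 to 19.1). Exons of non-coding genes or unclassified exons held 35 (3.26%, 2.35 to 4.50), against 1.46% (1.16 to 1.83). Coding exons held 3. The median distance to the nearest protein-coding TSS was 2155 bp for clustered summits and 1073 bp for the others. The others include 496 summits that lie in cluster regions but have fewer than 4 neighbours. Of the 229 clusters, 102 had 0 promoter summits, 18 had promoter summits alone, and 177 had most of their summits outside promoters. Neighbouring summits of 1 locus are not independent, so the intervals are too narrow for a comparison of loci.

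The promoter share was lower among summits with more neighbours, also below the threshold of the rule, though not at every step. It was 42.3% of the 1284 summits with 0 others within 10 kb, 42.7% with 1 other, 37.1% with 2, 35.5% with 3, 25.6% with 4, 29.2% with 5 and 15.7% of the 153 with 6. The promoter share was lowest with 7 others, at 9.62% (4.18 to 20.6), and was 15.4% (8.01 to 27.5) with 8 or more. Intergenic summits made up 19.7% of those with 0 others, 19.1% with 5, 30.1% with 6, 44.2% of the 52 with 7 and 25% of the 52 with 8 or more, with no steady order. The gap was also seen among peaks of like rank. Among the peaks of rank 1 to 1215, 66 of 271 clustered summits were at promoters (24.4%, 19.6 to 29.8), against 517 of 944 others (54.8%, 51.6 to 57.9). Among those of rank 3646 to 4860, the shares were 27.2% (21.6 to 33.6) and 33.9% (31.0 to 36.9). At rank 4861 to 6075 they were 27.7% (21.8 to 34.6) and 34.3% (31.5 to 37.3). In both of these lower groups the intervals overlap.

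**Figure D3:**
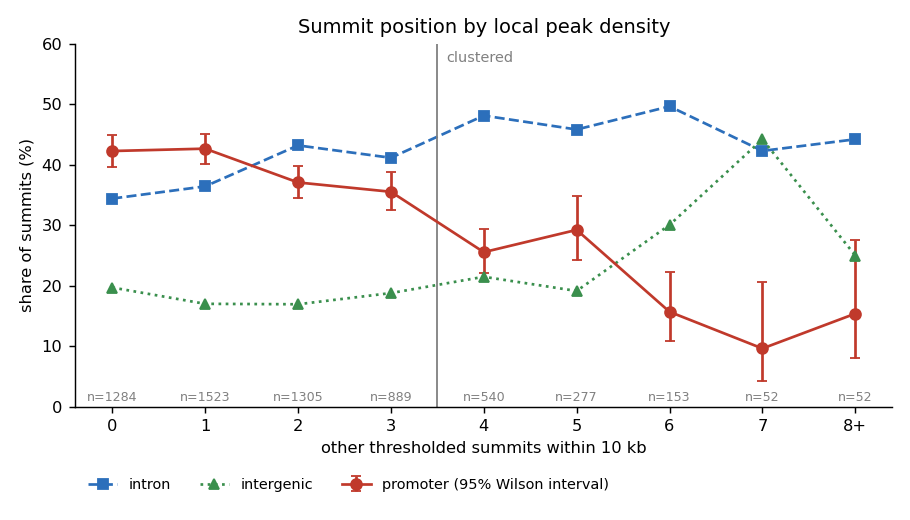
Share of thresholded summits at promoters (with 95% Wilson intervals), in introns and between genes (y axis, %) by the number of other thresholded summits within 10 kb (x axis), with the number of summits printed for each. Promoter shares go from 42.3% with 0 others to 15.7% with 6, 9.62% with 7 and 15.4% with 8 or more. Summits to the right of the grey line are the clustered ones.

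The single highest signal of the list was not that of a clustered summit. The signal of clustered summits had a median of 257 (quartiles 179 and 454, highest 3391), and that of the others 238 (quartiles 170 and 380, highest 27855). Of the 20 highest thresholded peaks 1 was clustered (0.888% to 23.6%), and of the 200 highest 43 were (16.4% to 27.7%), against 17.7% of all, and both intervals hold that share. Weaker peaks of the pooled list also lay in the clusters: 2892 of the 23925 pooled summits below the thresholded set (12.1%, 11.7 to 12.5) fell in the regions, which make up 4.99% of the arms. These lists come from the same libraries as the rule's, so this is not independent support.

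Both replicates held peaks at most clustered summits. Of the 1074, 88.5% (86.5 to 90.3) overlapped 1 of the leading 6075 peaks of replicate 2, 89.2% (87.2 to 90.9) those of replicate 3, and 78.4% (75.8 to 80.8) those of both, against 72.9% (71.7 to 74.2) for both among the other summits. With the rule applied to the leading 6075 summits of a single replicate, replicate 2 gave 1105 clustered summits in 229 clusters and replicate 3 gave 1093 in 224. Of these, 933 and 921 lay inside the regions described here. In 136 of the 229 regions both replicates had a clustered summit, and in 15 neither did. Among the 125 clusters with at least 5 clustered summits, 101 had them in both. The thresholded list was derived from both libraries, so these overlaps describe it and do not test it.

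**Figure D4:**
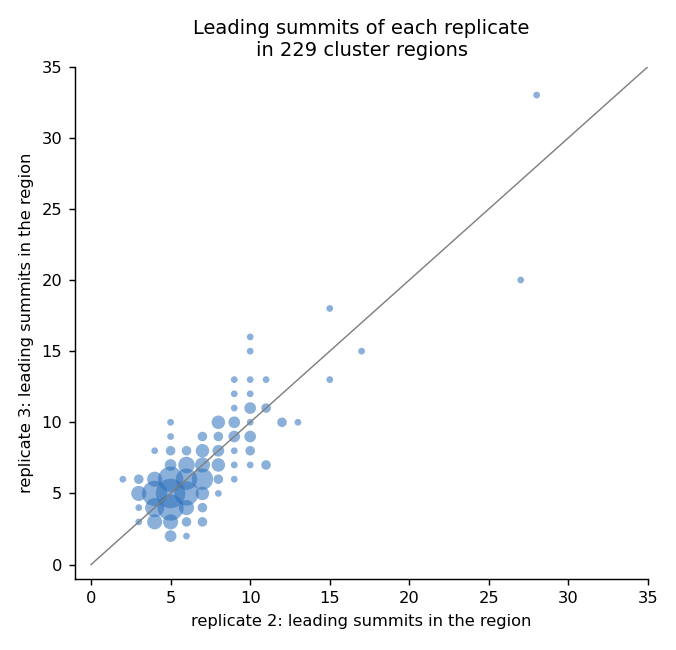
Number of leading summits (highest 6075) of replicate 2 (x axis) and of replicate 3 (y axis) in each of the 229 cluster regions, with dot area for the number of regions at that pair of counts and a grey line of equality. Most regions hold a like number in each replicate, and the largest has 28 in replicate 2 and 33 in replicate 3.

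Base composition at clustered summits differed little from that of the other summits. Mean GC content within 50 bp of the summit was 31.9% ± 9.09 (SD over 1074 summits) for clustered summits and 31.6% ± 9.40 (SD over 5001) for the others, and in both sets it was above 40% at 400 bp from the summit. At promoter summits the means were 33.2% and 31.7%. Letters of 16 known motifs were searched on both strands of the 101 bp windows, and overlaps between motifs were allowed. The A/T-rich word ATTTAAAA was in 6.15% (4.86 to 7.74) of clustered windows and in 7.18% (6.496 to 7.93) of the others. The homeodomain core TAATTA was in 12.3% (10.5 to 14.4) and 11.4% (10.6 to 12.3), and the E-box CATATG in 4.28% and 3.96%. The core promoter word GGTATTT was in 2.33% (1.58 to 3.41) and 3.10% (2.65 to 3.62). CGATAG, part of the site of the insulator protein BEAF-32, was in 1.77% (1.14 to 2.75) and 3.04% (2.60 to 3.55), and TATCGATA, the site of the replication-related factor Dref, was in 0.559% (0.256 to 1.21) and 1.02% (0.777 to 1.34). GTGGGAA, a site of Suppressor of Hairless, was in 0.745% and 0.800%. The other motifs were the core promoter word GGTCACAC, the GAGA factor word GAGAGAG, the Zelda word CAGGTAG, the E-box CACGTG, the GATA factor word AGATAAG, the TATA box word TATAAAAG, the repeat word CACACACA, the Caudal word TTTATGG and the Mef2 site. Of these, the TATA box word had the largest difference in share, with 21 of the clustered windows (interval 1.28% to 2.97%) and 60 of the others (0.933% to 1.54%). For each of the 16 motifs the intervals of the 2 sets overlapped. A match describes letters in a window and is not a site or a cause.

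**Figure D5:**
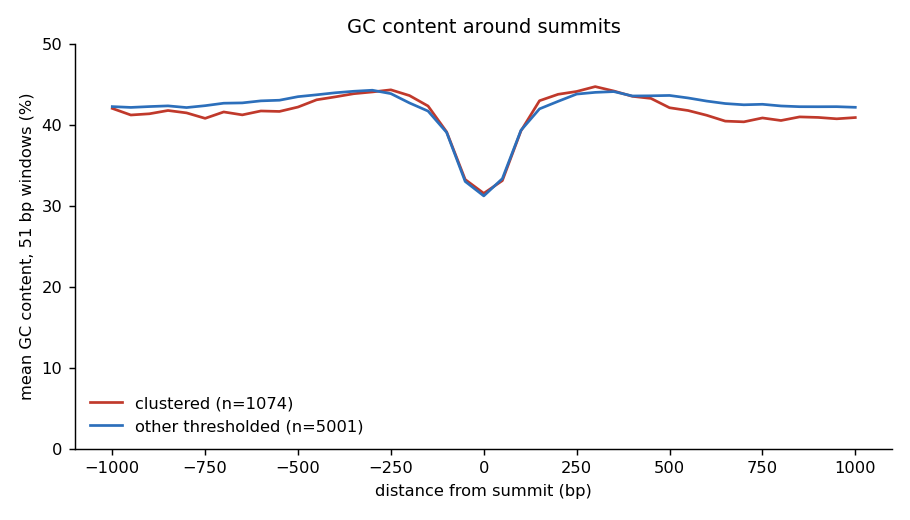
Mean GC content in 51 bp windows (y axis, %) by distance from the summit in bp (x axis) for the 1074 clustered and the 5001 other thresholded summits. Both curves dip at the summit, to 31.6% and 31.2%, and lie above 40% at 400 bp on either side.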

How the data were processed

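Peak lists in narrowPeak format were deposited for replicates 2 and 3, for both pooled and for peaks past the authors' IDR threshold, on dm6 and with a control alignment, per the accompanying notes. For the IDR cutoff, the read aligner and the peak caller, details were not given in the sources. The deposited signal of each peak is the authors' own value on an unstated scale and served to rank and describe peaks of the same list. The authors' −log10 q-value was read but gave no result, and the deposited summit offset, a position with no scale of its own, gave the summit. Depth is unknown, since the lists hold no read totals.

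Summits were counted, merged and annotated with Python 3.11, numpy 2.4.6 and pandas 2.3.3, after checks on simulated data. Ensembl release 115 supplied the gene models, and the sequence was RefSeq's Release 6. A summit was assigned to a single class: promoter (500 bp or less from a protein-coding TSS) before UTR, then coding exon, any other exon, intron and finally intergenic. An overlap with a replicate's peak needed 1 bp. Coordinates are 1-based. A gene was in a cluster when any TSS lay in its region.

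The members and lists were chosen with earlier results of these data known. Named clusters were the 12 with most clustered summits, the 5 with the highest summits and those with at least 2 members of a gene complex, 18 in all, with up to 6 nearest genes each, the tagged locus and up to 4 members of each list. A cluster that this rule takes is not reported here. Of the listed symbols, 9 were replaced by current ones and 7 had no match, and 1 symbol of the chromatin list that named a different gene was taken out after its value was seen. With 1 group and members chosen by position, no test was run, and replicate numbers only name the libraries.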

Additional observations from a re-analysis of the deposited data

How the results depend on the processing

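Of 63 alternative values, 24 stayed within the limits set for each quantity (1.5 times for counts, the counting interval for shares and 1.10 percentage points for GC content) and 39 moved. Requiring at least 3 or at least 5 other summits gave 1963 or 534 clustered summits, counting neighbours within 5 or 20 kb gave 241 or 2621, and the peaks of above-median signal alone gave 153. The number of clusters in these 5 settings was 426, 114, 80, 410 and 38. The promoter share of clustered summits was 29.1% with at least 3 others, 16.2% at 5 kb, 31.3% at 20 kb, 20.3% in the above-median peaks, 17.3% with a promoter window of 250 bp and 33.5% with 1000 bp. It stayed below that of the other summits in all 8 other clustering settings, for example at 16.2% against 37.9% and at 31.3% against 41.4%. With at least 3 or 5 others, 5 kb, 20 kb and the above-median peaks, the share of protein-coding genes in clusters was 14.2%, 3.20%, 1.61%, 19.3% and 1.03%, that of developmental transcription factors 20%, 3.68%, 3.16%, 25.8% and 2.11%, and the number of gene complexes 12, 3, 0, 16 and 1. Taking a cluster from its first to its last clustered summit gave 1.99%, 3.16% and 2 complexes. Folding summits under 500 bp apart gave 893 clustered summits and 5.72% of genes. Mean GC content was 30.4% in the above-median peaks and 34.0% within 100 bp of the summit. Leaving out replicate 2 or replicate 3 gave 1093 to 1105 clustered summits, 224 to 229 clusters, promoter shares of 25.2% to 27.0%, gene shares of 6.65% to 6.81%, transcription factor shares of 10% to 13.2%, 5 to 6 complexes and GC contents of 31.6% to 33.1%. The counts of signalling and chromatin genes under each replicate and without flanks, given with the gene lists, were chosen after seeing the data; without replicate 2 they were 16 of 91 and 11 of 64. No paired analysis was possible because the result comes from no test and there is a single group. The definition of a cluster thus sets every count of members, and the unknown depth limits what can be said of absent clusters.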
